A study of Mus musculus with 24 samples.

Results

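Liver RNA from mice fed high sucrose with cholesterol was compared with liver RNA from mice fed high sucrose alone, over all genes of the deposited count table that passed a filter on low counts. The members are the 8 table columns whose names carry these diets: 5 for high sucrose (HS) and 3 for high sucrose with 2% cholesterol (Chol2_HS). They are 8 of the 20 columns used, out of 24 labelled samples in the series. All mice were wild-type C57BL/6 on a diet for 8 weeks from 8 to 10 weeks of age. The other diets, used for the shared estimate of spread and for side-by-side levels, were normal chow (4 libraries), cholic acid (4) and 2% cholesterol with cholic acid (4). The labels give no sex and do not say whether each sample is a separate animal, so p-values measure the spread between these libraries.

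The labels list 4 samples for sucrose with cholesterol, and the table has 3 columns for that diet. The labels number samples from 1 and the columns from 0, so a column stands for its diet and not for a numbered sample, and below "sucrose library 0" and "cholesterol library 0" are the column numbers. One sample titled as sucrose carries chow in its diet field and cannot be matched to a column. Pnpla3, which was low on chow (mean 3.26 CPM, counts-per-million), stood between 18.0 and 48.9 CPM in all 5 sucrose libraries. Total counts were 6790751 to 7769883 in the sucrose libraries and 6110484 to 6709497 in the cholesterol libraries. The 10 hepatocyte-defining genes, among them Alb, Ttr and Apoa1, summed to 93600 to 109000 CPM on sucrose and 80480 to 89770 CPM with cholesterol, and none of the 10 passed the test by edgeR or DESeq2, with 2 at an unadjusted p under 0.05 by edgeR.

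Libraries stood apart in a pair of ways that touch the results. Sucrose libraries 0 to 2 lost counts with transcript length (slopes from -0.157 to -0.121 log2 units per doubling of length), while sucrose libraries 3 and 4 gained them (0.0860 and 0.0801). The slopes were -0.0282, 0.0788 and 0.0568 in cholesterol libraries 0, 1 and 2. The cholesterol libraries also carried more reads on the wrong strand. In mitochondrial DNA, where messages lie almost all on the heavy strand, they held 673 to 900 light-strand tRNA reads (reads-per-million, over heavy-strand messenger reads), against 10.4 to 36.4 in the sucrose libraries. Called genes are therefore counted first over genes with no annotated gene opposite, and the lists below hold genes of both kinds. Hmgcs1, Mvd, Cyp51, Abcg5, Abcg8, Srebf1, Gramd1b, Ostb, Acss2 and G6pdx have a gene opposite. So do Pklr, Acaa1b, Por, Plin4, Apoa4 and Gls2, among others. The part of wrong-strand reads in their values was not tested.

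Dietary cholesterol is sensed in liver by a pair of opposed systems. SREBP2, a membrane-bound transcription factor, is released to switch on the cholesterol synthesis enzymes when membrane sterol is low and is held back when it is high. LXR, a nuclear receptor bound by oxysterols, switches on sterol export through ABCG5 and ABCG8 and, in mice, bile acid synthesis through CYP7A1. Sucrose feeds fatty acid synthesis, which is driven by SREBP1c and ChREBP.

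Most of the listed cholesterol synthesis genes fell, and Abcg5 and Abcg8, which encode a sterol exporter, rose when cholesterol was added to sucrose. Of 7817 tested genes with no gene on the other strand, 57 were higher (0.729%) and 56 lower (0.716%) at an adjusted p under 0.05 by edgeR's quasi-likelihood test, 113 in all (1.45%). Over all 12595 genes tested, 201 were higher (1.6%) and 82 lower (0.651%), 2.25% in all, the median log2 fold change was 0.014, and the groups did not overlap for 11.8% of genes. Called protein-coding genes without a gene opposite, with a mean of at least 5 CPM in either diet and no overlap between the diets, were ranked. The lack of overlap in ranked genes was thus fixed by the choice. The largest falls were in Chrna4, Sqle, Cyp17a1 and Gria3, and the largest rises in Cfd, Cyp4a14, Gbp1 and 9130409I23Rik. Leaving out 1 library took the unopposed counts as low as 26 higher and 24 lower (without cholesterol library 0). They were 29 and 27 without cholesterol library 1, 66 and 32 without cholesterol library 2, and 37 and 35 without sucrose library 1. Without sucrose libraries 0 to 2 the counts were 89 higher and 123 lower. That fit also left out the libraries of the other diets with a slope below -0.05, a limit chosen after seeing the data. The same holds wherever sucrose libraries 0 to 2 are left out below.

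**Figure D1:**
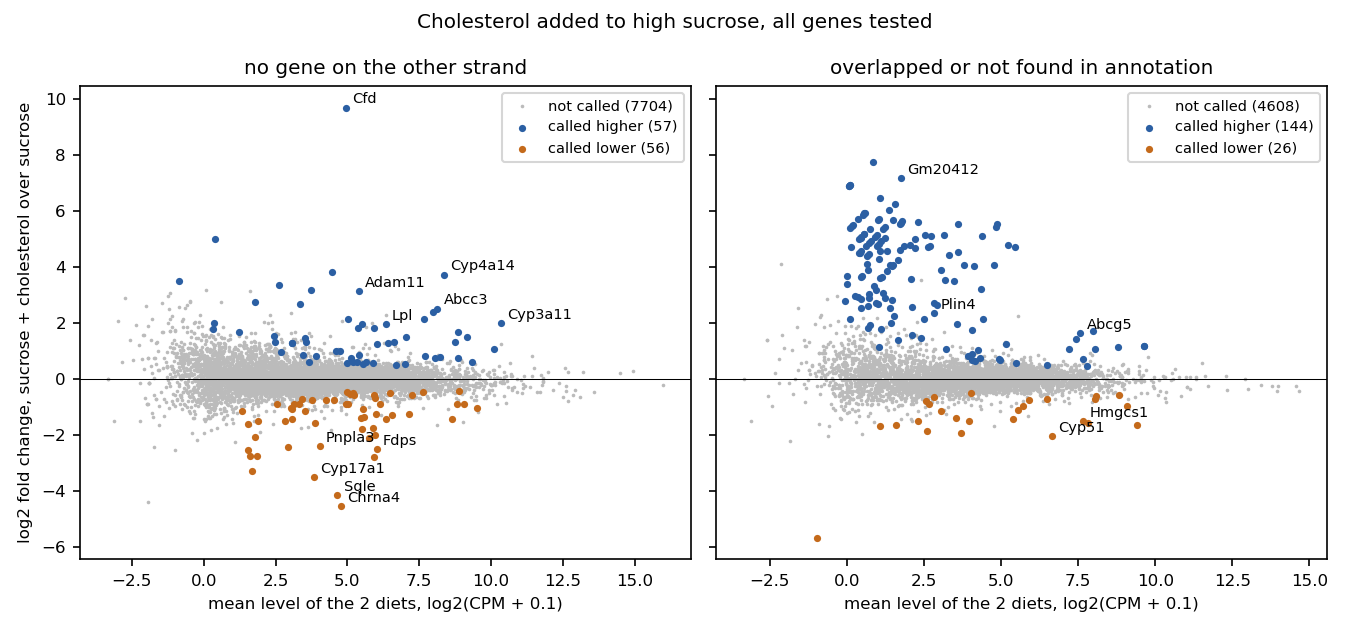
Each point is 1 of 12595 genes, with mean level on the horizontal axis (log2 of CPM + 0.1) and log2 fold change of sucrose plus cholesterol over sucrose on the vertical axis. Genes without a gene on the other strand are at left (57 called higher, 56 lower) and all others at right (144 higher, 26 lower).

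The mevalonate arm builds the isoprenoid units of cholesterol from acetyl-CoA. Of its 9 listed genes 8 passed the filter (Idi1 had 20 reads in the sucrose libraries and 3 in the cholesterol libraries), 5 fell and none rose, with a median log2 fold change of -1.38 against 0.014 over all genes. Of the 5 tested members without a gene opposite, 3 fell. All 8 were lower in every cholesterol library than in every sucrose library. Fdps, which makes farnesyl diphosphate, stood at 107, 100.2, 142, 107 and 95.1 CPM in sucrose libraries 0 to 4 and at 16.3, 23.9 and 18.1 CPM in cholesterol libraries 0 to 2. Every cholesterol library lay below every sucrose one, and the log2 fold change was -2.51 ± 0.32 (SE, adjusted p = 4.01e-05, edgeR).

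Pmvk, the phosphomevalonate kinase, went from 56.2 to 85.3 CPM on sucrose down to 16.9 to 25.5 CPM with cholesterol (-1.78 ± 0.26, adjusted p = 0.000171, edgeR). Mvk, mevalonate kinase, went from 14.9 to 17.2 CPM down to 6.20 to 8.47 CPM (-1.14 ± 0.22, adjusted p = 0.00341, edgeR). Hmgcs1, the HMG-CoA synthase, stood at 327, 204, 378, 295 and 290 CPM on sucrose and 105, 134 and 75.7 CPM with cholesterol (-1.51 ± 0.30, adjusted p = 0.00579, edgeR, and 0.0539 without cholesterol library 2). Mvd, which decarboxylates mevalonate diphosphate, was at -1.92 ± 0.43 (adjusted p = 0.0159, edgeR). Its adjusted p was 0.0763 to 0.0861 with any 1 cholesterol library left out.

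Acat2, the cytosolic thiolase, did not overlap between the diets (31.0 to 65.9 against 16.9 to 20.4 CPM) and missed the threshold (-1.24 ± 0.33, adjusted p = 0.0537, edgeR). Ggps1, which makes geranylgeranyl diphosphate, did not pass either (-0.64, adjusted p = 0.0997, edgeR).

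Of the enzymes from squalene to cholesterol, 10 of 13 tested members were lower and none higher, with a median of -1.36, and 7 of the 8 without a gene opposite fell. Sqle, the squalene monooxygenase and second rate-limiting step, lies at chr15:59315077-59331192 on the plus strand (GRCm38). It stood at 27.6, 31.8, 50.8, 65.3 and 60.6 CPM on sucrose and at 3.04, 2.27 and 2.79 CPM with cholesterol, so that every cholesterol library lay far below every sucrose one. The log2 fold change was -4.13 ± 0.42 (adjusted p = 2.98e-06, edgeR), and the chow mean was 67.7 CPM.

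Nsdhl, a sterol dehydrogenase that removes the C4 methyl groups, went from 70.4 to 114.5 CPM down to 16.9 to 25.2 CPM (-2.10 ± 0.26, adjusted p = 2.54e-05, edgeR). Its partner Sc4mol, now Msmo1, went from 82.4 to 107 CPM down to 17.2 to 32.1 CPM (-1.76 ± 0.22, adjusted p = 3.32e-05, edgeR). Cyp51, the lanosterol demethylase, was at -2.03 ± 0.25 (adjusted p = 2.7e-05, edgeR), with 118 to 203 CPM on sucrose and 34.5 to 48.6 CPM with cholesterol. Cyp51 overlaps Akap9 on the other strand, a gene at 53.1 CPM.

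Dhcr7, which makes the last reduction from 7-dehydrocholesterol, fell by 1.42 on the log2 scale (108 to 131 CPM on sucrose, 39.7 to 49.1 CPM with cholesterol). Tm7sf2 fell by 1.26, Lss by 1.44, Hsd17b7 by 1.36, Fdft1 by 1.12 and Sc5d by 0.90. Of the members that did not pass, Ebp, a sterol isomerase, was at -0.38 (adjusted p = 0.395, edgeR) and Lbr, which shares its reductase step with Tm7sf2, at -0.28 (adjusted p = 0.495, edgeR). With 1 library left out, 3 to 6 members of the mevalonate arm and 7 to 10 of the later enzymes fell, the fewest without cholesterol library 2 and cholesterol library 0 in turn. Without sucrose libraries 0 to 2, 7 of 8 and 10 of 13 fell.

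**Figure D2:**
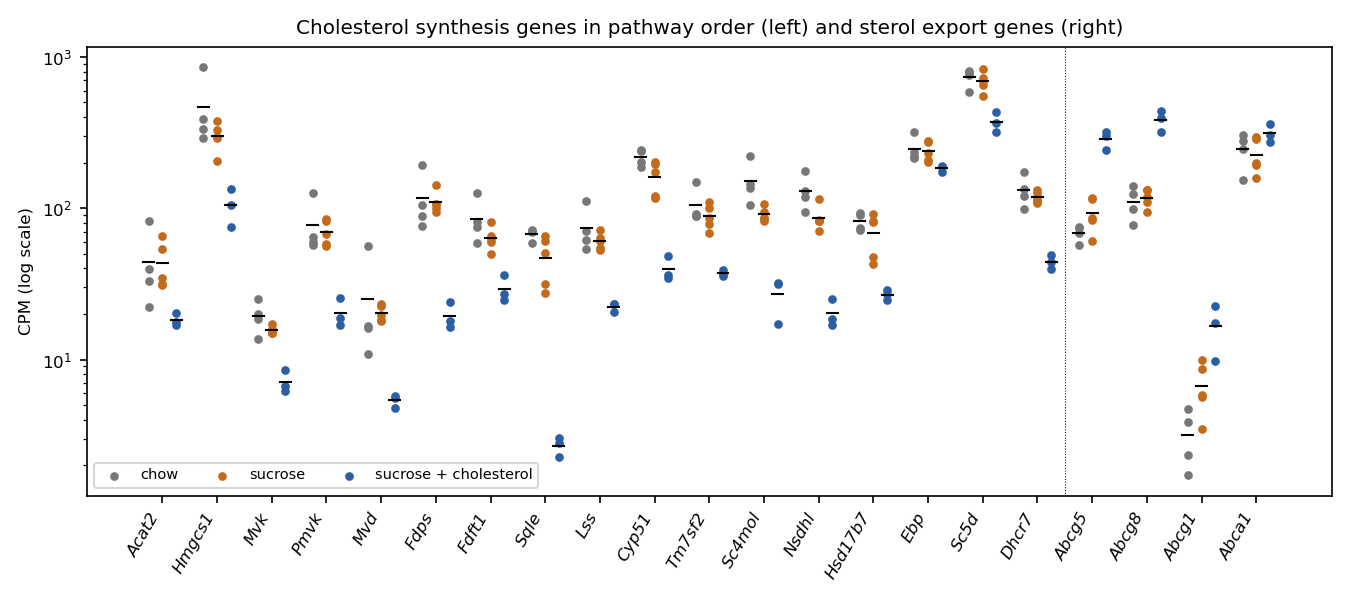
CPM on a log axis for each library of chow (4), sucrose (5) and sucrose plus cholesterol (3), with black bars at the group means; synthesis genes stand in pathway order left of the dotted line and export genes right of it. Sqle has the widest gap (27.6 to 65.3 against 2.27 to 3.04 CPM), and Abcg5 and Abcg8 move the other way.

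SREBP2 binds a sterol regulatory element, usually beside a CCAAT box bound by NF-Y, so the bases before the starts of these genes are shown. Promoter windows of RefSeq (GRCm38.p6) were found for 27 of the 36 genes in the lists of synthesis, sensing and uptake, and for 13 of the 16 that fell. Each sequence below is the 250 bases before the start of 1 gene that fell, 5' to 3' on the gene's strand. Capitals mark TCACNCCAC, a fixed form of the core of the element, and CCAAT. Both were searched on both strands, so that CCAAT on the other strand reads ATTGG. Hmgcs1 is shown for its match to both motifs, Nsdhl and Msmo1 for more than 1 CCAAT, and Cyp51 for a single one.
Hmgcs1, chr13:119690101-119690350 (plus strand): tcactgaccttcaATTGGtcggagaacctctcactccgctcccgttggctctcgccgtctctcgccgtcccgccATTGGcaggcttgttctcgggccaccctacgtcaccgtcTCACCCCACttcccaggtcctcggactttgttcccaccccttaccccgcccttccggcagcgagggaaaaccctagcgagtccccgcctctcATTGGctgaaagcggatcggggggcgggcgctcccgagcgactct
Nsdhl, chrX:72918271-72918520 (plus strand): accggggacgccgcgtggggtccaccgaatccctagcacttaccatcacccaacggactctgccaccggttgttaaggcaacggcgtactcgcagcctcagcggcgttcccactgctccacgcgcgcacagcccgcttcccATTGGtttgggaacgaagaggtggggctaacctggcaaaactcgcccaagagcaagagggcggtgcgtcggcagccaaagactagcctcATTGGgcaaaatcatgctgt
Msmo1, chr8:64733579-64733828 (minus strand): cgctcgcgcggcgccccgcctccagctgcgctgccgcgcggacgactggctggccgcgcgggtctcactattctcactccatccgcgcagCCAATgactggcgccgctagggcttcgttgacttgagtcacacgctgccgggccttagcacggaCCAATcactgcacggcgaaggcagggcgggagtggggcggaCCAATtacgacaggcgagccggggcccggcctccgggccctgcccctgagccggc
Cyp51, chr5:4104698-4104947 (minus strand): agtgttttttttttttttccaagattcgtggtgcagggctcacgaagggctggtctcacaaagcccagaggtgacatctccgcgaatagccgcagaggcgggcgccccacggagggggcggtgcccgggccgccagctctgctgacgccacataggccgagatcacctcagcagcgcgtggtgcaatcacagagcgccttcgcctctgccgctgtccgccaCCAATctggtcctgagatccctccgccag

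CCAAT was present before a start of all 13 sterol genes that fell and had a window, of 23 of the 27 listed sterol genes with a window, and of 40.3% of the tested genes with a window. Over all 32851 windows of that length, 33.8% held it. TCACNCCAC was present in 1.05% of all windows and, among the 27 genes, in Hmgcs1 only. Only exact matches were counted, with the base at N free. An element that differs at another base was missed, so a window without a match may still hold an element. The matches describe letters in these windows and no binding was measured.

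Few of the sensing and uptake genes passed. Of 13 tested, 1 fell and none rose, and the median was -0.22. The gene that fell was Rdh11, a retinal reductase and known SREBP target, which stood at 91.7, 82.8, 134, 92.8 and 92.5 CPM on sucrose and 27.5, 24.6 and 22.3 CPM with cholesterol (-1.99 ± 0.25, adjusted p = 3.57e-05, edgeR). Insig1, the sterol-regulated anchor of the SREBP complex, was at -0.65 (adjusted p = 0.456, edgeR) and Srebf2 itself at -0.31 (adjusted p = 0.469, edgeR). Npc1l1, with 1 read in the sucrose libraries and none with cholesterol, was not tested. Of the 13 tested, 10 were below 0 and 4 were at an unadjusted p under 0.05 (edgeR). Without sucrose libraries 0 to 2, 4 of 13 fell (median -0.37), and 2 fell in a fit of the 2 diets alone.

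Of 14 LXR target genes, all tested, 4 rose and none fell, with a median of 0.40. Of the 8 without a gene opposite, 2 rose. Abcg5 and Abcg8 encode the subunits of the sterol exporter of bile and lie head to head on chromosome 17. Abcg5 stood at 117, 116, 83.8, 86.5 and 60.6 CPM on sucrose and 317, 299 and 244 CPM with cholesterol (1.63 ± 0.18, adjusted p = 9.58e-06, edgeR). Abcg8 stood at 133, 132, 109.7, 119 and 94.8 CPM on sucrose and 441, 394 and 321 CPM with cholesterol (1.71 ± 0.20, adjusted p = 1.27e-05, edgeR). The pair overlap each other on opposite strands and the part of wrong-strand reads in their rise was not tested.

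Lpl, the lipase that frees fatty acids from lipoproteins, has no gene opposite. It stood at 36.6, 34.4, 28.9, 26.1 and 37.5 CPM on sucrose and 113, 138 and 132 CPM with cholesterol (1.96 ± 0.22, adjusted p = 9.58e-06, edgeR), while the chow mean was 34.3 CPM. Abcg1, an exporter of sterol to HDL, was at 1.30 ± 0.32 (adjusted p = 0.0324, edgeR), but cholesterol library 2 (9.85 CPM) lay below sucrose library 3 (9.93 CPM). Its adjusted p without a library was 0.303 (cholesterol library 0), 0.139 (cholesterol library 1) and 0.0809 to 0.0912 (sucrose library 0, 1 or 2).

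Abca1, another LXR target, overlapped between the diets (159 to 294 against 274 to 362 CPM; adjusted p = 0.404, edgeR). Srebf1, whose product drives fatty acid synthesis, did not overlap (193 to 360 against 402 to 741 CPM) and did not pass (1.14 ± 0.35, adjusted p = 0.12, edgeR). Scd1, the stearoyl-CoA desaturase, was among the most abundant messages (20710 to 34670 against 27550 to 46130 CPM) and showed no detectable change (0.29 ± 0.35, adjusted p = 0.77, edgeR).

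The sterol-handling genes outside synthesis moved one by one. Gramd1b and Gramd1c encode related proteins (Asters) that carry cholesterol from the plasma membrane to the endoplasmic reticulum. Gramd1c fell from 36.0 to 45.1 CPM down to 19.0 to 23.6 CPM (-0.91 ± 0.17, adjusted p = 0.00213, edgeR). Gramd1b rose from 1.88 to 3.15 CPM up to 3.45 to 10.6 CPM (1.46 ± 0.31, adjusted p = 0.00978, edgeR, and 0.0887 and 0.132 without cholesterol library 0 or 1). Soat2, the sterol acyltransferase of hepatocytes, was at -0.25 (adjusted p = 0.623, edgeR).

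Bile acid synthesis changed at single enzymes. Of 16 tested genes, 2 rose and 1 fell, with a median of -0.04. Cyp7a1, the rate-limiting enzyme of the classical route, stood at 12.1, 13.4, 12.1, 37.0 and 16.8 CPM on sucrose and 50.3, 69.8 and 72.9 CPM with cholesterol (1.81 ± 0.38, adjusted p = 0.00955, edgeR). The cholesterol libraries lay beside the chow mean of 53.8 CPM. The adjusted p was 0.0557 without cholesterol library 1, and 0.303 (log2 fold change 1.40) with only the libraries that gained counts with length, 2 of each diet.

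Acox2, a peroxisomal oxidase that shortens the side chain, went from 170 to 209 CPM up to 328 to 330.2 CPM (0.75 ± 0.13, adjusted p = 0.00185, edgeR). Cyp39a1, an oxysterol hydroxylase, fell from 15.0 to 27.3 CPM down to 4.63 to 10.9 CPM (-1.57 ± 0.36, adjusted p = 0.0212, edgeR, and 0.156 and 0.0805 without cholesterol library 0 or 2). Cyp8b1, which directs synthesis to cholic acid, overlapped (304 to 449 against 416 to 522 CPM; adjusted p = 0.648, edgeR). Nr0b2, the repressor SHP, overlapped as well (57.4 to 95.7 against 34.8 to 91.6 CPM; adjusted p = 0.787, edgeR).

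Bile acid transporters gave 1 rise and 1 fall among 12 tested genes. Abcc3, which returns bile acids and conjugates to blood, lies at chr11:94343295-94392997 on the minus strand (GRCm38). It stood at 130.1, 79.7, 56.6, 87.5 and 64.5 CPM on sucrose and 541, 496 and 392 CPM with cholesterol (2.51 ± 0.30, adjusted p = 2.17e-05, edgeR), all above the chow mean of 359 CPM. Ostb, a subunit of the basolateral bile acid exporter, had 27 reads in the sucrose libraries and 0 in the cholesterol libraries, so it was at least 5.09-fold lower (against a floor of 3 reads over the group). Its adjusted p of 0.0136 (edgeR) was 0.0637 and 0.0593 without cholesterol library 0 or 1.

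Fatty acid synthesis fell in part. Of 22 tested genes, 6 fell and none rose, with a median of -0.75, and of the 12 without a gene opposite 3 fell. Acss2, which makes acetyl-CoA from acetate, stood at 337, 310.4, 457, 324 and 253 CPM on sucrose and 102, 127 and 108 CPM with cholesterol (-1.58 ± 0.25, adjusted p = 0.000399, edgeR). Pnpla3, a lipid droplet hydrolase induced by SREBP1c, stood at 23.9, 23.0, 48.9, 23.1 and 18.0 CPM on sucrose and 6.39, 6.35 and 2.79 CPM with cholesterol (-2.40 ± 0.48, adjusted p = 0.00601, edgeR, and 0.0502 without cholesterol library 2). Cholesterol library 2 alone lay below the chow mean of 3.26 CPM.

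Pnpla5, its neighbour on chromosome 15, went from 3.70 to 6.28 CPM down to 0.151 to 1.15 CPM (-2.55 ± 0.53, adjusted p = 0.00842, edgeR, and 0.0734 without cholesterol library 1). Acly, the citrate lyase, went from 368 to 769 CPM down to 195 to 238 CPM (-1.42 ± 0.32, adjusted p = 0.0151, edgeR). G6pdx, which feeds NADPH to the pathway, was at -1.50 ± 0.33 (adjusted p = 0.0121, edgeR, and 0.0927 and 0.0712 without cholesterol library 1 or 2). Pklr, the liver pyruvate kinase, was at -0.95 ± 0.25 (adjusted p = 0.0474, edgeR). Its adjusted p was above the threshold with any 1 of 7 libraries left out (0.068 to 0.259, all but sucrose library 4).

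Fasn, the fatty acid synthase, did not overlap (1015 to 1585 against 744 to 973 CPM) and did not pass (-0.56 ± 0.46, adjusted p = 0.641, edgeR). The count of fallen members was 2 to 6 with 1 library left out, fewest without cholesterol library 1 or 2, and 8 without sucrose libraries 0 to 2. Fads1, a desaturase of polyunsaturated fatty acids, was at -1.03 ± 0.25 (adjusted p = 0.0325, edgeR) and passed in 3 of the 8 fits without 1 library. Its adjusted p in the other 5, without sucrose library 3 or 4 or any cholesterol library, was 0.0508 to 0.161.

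Genes of fatty acid oxidation under PPARalpha, the receptor for fatty acids, rose at a few members: 5 of 32 were higher and none lower, with a median of 0.20, and 4 of the 23 without a gene opposite were higher. Ehhadh, the peroxisomal bifunctional enzyme, stood at 319, 236, 327, 280 and 342 CPM on sucrose and 736, 939 and 866 CPM with cholesterol (1.49 ± 0.20, adjusted p = 5.66e-05, edgeR). Cyp4a14, a fatty acid omega-hydroxylase at chr4:115486200-115496142 on the minus strand (GRCm38), stood at 109, 8.64, 19.5, 22.2 and 70.02 CPM on sucrose and 549.7, 943 and 323 CPM with cholesterol (3.72 ± 0.63, adjusted p = 0.000968, edgeR). Every cholesterol library was higher than every sucrose one, and the chow mean was 640 CPM.

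Cyp4a10, its paralog, stood at 140, 43.0, 66.5, 39.3 and 121 CPM on sucrose and 426, 486 and 360 CPM with cholesterol (2.37 ± 0.43, adjusted p = 0.00217, edgeR). Acaa1b, a peroxisomal thiolase, was at 1.19 ± 0.27 (adjusted p = 0.0199, edgeR) and Acot1, an acyl-CoA thioesterase, at 1.47 ± 0.35 (adjusted p = 0.0275, edgeR). Acaa1b had an adjusted p of 0.0502 to 0.123 without sucrose library 1, 3 or 4 or any 1 cholesterol library. Cpt1a, which admits fatty acids to mitochondria, showed no detectable change (-0.07, adjusted p = 0.934, edgeR). Without sucrose libraries 0 to 2 the list had 3 higher and 3 lower, and with only the libraries that gained counts with length Cyp4a14 and Cyp4a10 had adjusted p of 0.155 and 0.186 at log2 fold changes of 3.79 and 2.41. With 1 library left out, 3 to 6 members were higher, and 3 without sucrose library 1, 3 or 4 or any 1 cholesterol library.

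Drug metabolism genes under CAR and PXR, the xenobiotic receptors, rose at 5 of 24 tested members, none fell, and the median was 0.60. Of the 17 without a gene opposite, 4 rose. The count was 2 without sucrose library 4 or cholesterol library 0 or 1, and 8 without sucrose libraries 0 to 2. Cyp3a11, the main PXR target, stood at 866, 544, 456, 384 and 330 CPM on sucrose and 2342, 2469 and 1340 CPM with cholesterol (1.99 ± 0.28, adjusted p = 0.000108, edgeR). The chow mean was higher than both, at 3615 CPM. Cyp2c29 went from 535 to 854 CPM up to 1251 to 1672 CPM (1.08 ± 0.25, adjusted p = 0.0182, edgeR). Por, the electron donor of these enzymes, went from 162 to 179.8 CPM up to 322 to 395 CPM (1.08 ± 0.26, adjusted p = 0.0247, edgeR). Cyp3a, Cyp2c, Cyp4a and Gsta genes have close paralogs, among which short reads can be divided wrongly. Cyp2c29 had adjusted p of 0.0553 to 0.133 without sucrose library 4, cholesterol library 0 or 1, and Por of 0.05 to 0.129 without any library but sucrose library 0 and cholesterol library 2.

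Cyp3a44 had 2 reads in the sucrose libraries and 16 in the cholesterol libraries, a ratio of 14.1 (95% exact counting interval 3.33 to 127; adjusted p = 0.0357, edgeR, and 0.0754 to 0.189 without sucrose library 2, 3 or 4 or cholesterol library 0 or 1). Of the NRF2 and glutathione list 2 of 23 rose and none fell, with a median of 0.36 (1 to 3 higher with 1 library left out). Ephx1, the microsomal epoxide hydrolase, stood at 220, 209, 276, 171 and 233 CPM on sucrose and 765, 646 and 700.0 CPM with cholesterol (1.67 ± 0.20, adjusted p = 2.17e-05, edgeR), beside a chow mean of 673 CPM. Gsta2 was at 2.76 ± 0.66 (adjusted p = 0.0286, edgeR), with 0.136 to 1.88 CPM on sucrose and 4.76 to 6.95 CPM with cholesterol. Its adjusted p without 1 library passed only without sucrose library 2 or cholesterol library 2, and was 0.0564 to 0.122 in the others.

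9130409I23Rik, an uncharacterised gene that neighbours Ephx1 on chromosome 1, stood at 2.25 to 2.99 CPM on sucrose and 22.4 to 26.3 CPM with cholesterol (3.16 ± 0.30, adjusted p = 1.42e-06, edgeR). Slc39a4, the zinc importer ZIP4, stood at 12.5, 19.6, 8.31, 12.1 and 8.70 CPM on sucrose and 57.02, 44.3 and 57.9 CPM with cholesterol (2.12 ± 0.27, adjusted p = 3.93e-05, edgeR). Adam11, a catalytically inactive member of the ADAM family, stood at 10.1, 13.9, 7.22, 6.67 and 5.10 CPM on sucrose and 74.8, 79.6 and 71.9 CPM with cholesterol (3.14 ± 0.40, adjusted p = 4.09e-05, edgeR). For all 3 the lowest cholesterol library was above the highest sucrose library, which the choice of these genes required.

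**Figure D3:**
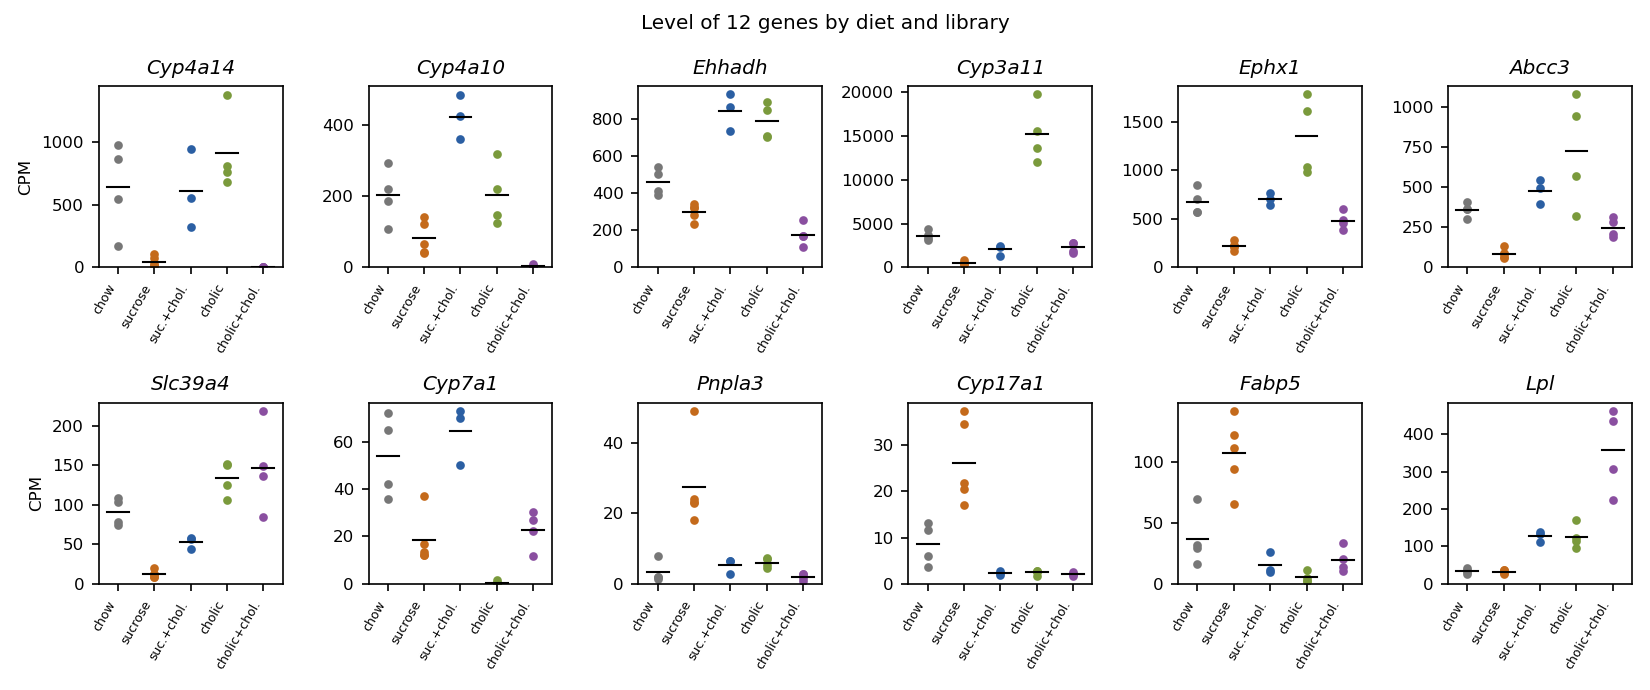
CPM of 12 genes in each library of the 5 diets with columns used, on linear axes from 0 with black bars at the group means. Cyp4a14, Ephx1 and Cyp7a1 are low on sucrose alone and stand near the chow mean with cholesterol, while Cyp17a1 and Pnpla3 are high on sucrose alone.

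The largest fall of a gene without one opposite was Chrna4, a subunit of the nicotinic acetylcholine receptor, at chr2:181018380-181043546 on the minus strand (GRCm38). It stood at 74.2, 51.0, 83.5, 29.5 and 21.0 CPM on sucrose and 2.08, 2.27 and 2.30 CPM with cholesterol (-4.54 ± 0.77, adjusted p = 0.000968, edgeR). Cyp17a1, a steroid hydroxylase, stood at 37.4, 16.9, 34.5, 20.4 and 21.9 CPM on sucrose and 1.92, 2.72 and 2.30 CPM with cholesterol (-3.49 ± 0.40, adjusted p = 1.04e-05, edgeR), against a chow mean of 8.64 CPM. It was the 1 called gene among 16 tested steroid hormone genes and among 25 male-biased ones (median -0.38). Cyp17a1 also stood in the female-biased list, where 1 of 13 tested genes rose and 2 fell (median -0.27). Gria3, a glutamate receptor subunit, went from 2.20 to 7.62 CPM down to 0.479 to 0.756 CPM (-3.27 ± 0.47, adjusted p = 0.000162, edgeR).

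Fabp5, a fatty acid binding protein, stood at 65.6, 123, 142, 94.0 and 111 CPM on sucrose and 9.26, 11.2 and 25.9 CPM with cholesterol (-2.79 ± 0.55, adjusted p = 0.00491, edgeR, and 0.061 and 0.0532 without cholesterol library 0 or 1). Mycn went from 4.40 to 6.26 CPM down to 0.821 to 1.60 CPM (-2.08 ± 0.45, adjusted p = 0.0111, edgeR, and 0.0557 and 0.0701 without cholesterol library 1 or 2). Apoa4, an intestinal and hepatic apolipoprotein, went from 658 to 1688 CPM down to 248 to 405 CPM (-1.65 ± 0.38, adjusted p = 0.0187, edgeR, and 0.101 and 0.103 without cholesterol library 0 or 2). It was the 1 called gene of 14 apolipoproteins (median -0.47).

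Tff3, a trefoil peptide, was at -2.75 ± 0.67 (adjusted p = 0.032, edgeR) and Cib3 at -2.75 ± 0.70 (adjusted p = 0.0431, edgeR). Tff3 had adjusted p of 0.0505 to 0.201 without sucrose library 1, 3 or 4 or cholesterol library 0 or 1, and Cib3 of 0.0501 to 0.183 without any library but sucrose library 4. Pdzk1ip1 was at -2.42 ± 0.55 (adjusted p = 0.0173, edgeR, and 0.052 to 0.101 without any 1 cholesterol library). Gbp1, an interferon-induced GTPase, went from 0.314 to 1.99 CPM up to 2.95 to 20.9 CPM (3.34 ± 0.61, adjusted p = 0.00237, edgeR, and 0.0709 without cholesterol library 0).

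Lipid droplet genes rose at 3 of 14 tested members, with none lower and a median of -0.12. Of the 7 without a gene opposite, 2 rose. Plin4, a perilipin opposite Hdgfl2 (33.7 CPM), stood at 2.42, 2.28, 1.73, 1.77 and 3.30 CPM on sucrose and 11.02, 17.2 and 7.06 CPM with cholesterol (2.35 ± 0.36, adjusted p = 0.000334, edgeR). Hsd17b11, a droplet dehydrogenase, went from 195 to 234 CPM up to 341 to 393 CPM (0.79 ± 0.14, adjusted p = 0.0012, edgeR). Cidec, which fuses droplets, was at 2.66 ± 0.59 (adjusted p = 0.0156, edgeR), although cholesterol library 2 (4.92 CPM) lay below sucrose library 0 (5.12 CPM). Its adjusted p was 0.168 without cholesterol library 1, 0.0709 without cholesterol library 0, and 0.0509 and 0.0503 without sucrose library 1 or 4.

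Cd36, a fatty acid transporter, was at 1.82 ± 0.39 (adjusted p = 0.0112, edgeR, and 0.19 without cholesterol library 1), with 13.2 to 48.3 CPM on sucrose and 45.95 to 154 CPM with cholesterol, which overlap. Plin2, the main droplet coat of hepatocytes, was at -0.74 (adjusted p = 0.0745, edgeR). In whole liver, more cells of a type and more RNA per cell cannot be told apart.

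The largest rise of a gene without one opposite was Cfd, the complement protease adipsin made by fat cells, at chr10:79890853-79892655 on the plus strand (GRCm38). It had 2 reads in all 5 sucrose libraries and 690, 483 and 17 reads (110.2, 73.0 and 2.79 CPM) in cholesterol libraries 0, 1 and 2, a ratio of 1050 (95% exact counting interval 291 to 8700, which covers counting error only; adjusted p = 7.3e-05, edgeR). With only the libraries that gained counts with length its adjusted p was 0.278, at a log2 fold change of 8.78 against 9.68 over all libraries. Among the other adipose markers, Adipoq had 0, 17 and 0 reads in cholesterol libraries 0, 1 and 2 and 2 in the sucrose libraries, and Plin1 had 0, 14 and 0 and none. Retn (2 reads) and Lep (1 read) were also seen in cholesterol library 1 only. Slc7a10 had 8, 6 and 6 reads in the cholesterol libraries and 2 in the 5 sucrose libraries, and Adrb3 had 175 and 278 in all. Of the 10 adipose markers 4 were at 0 on sucrose and 1 with cholesterol, and their sum, mostly Car3, was 1421 to 2691 CPM on sucrose and 3424 to 3865 CPM with cholesterol. Car3 had 10383 to 16402 reads in the sucrose libraries, which had no Plin1 reads. The sum thus follows Car3 and not Adipoq or Plin1. The part of adipose tissue in the Cfd rise was not tested.

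Macrophage and antigen-presentation genes had medians above 0, and how many passed depended on the libraries and the test. Of 15 tested MHC class II and dendritic cell genes 1 rose, none fell, and all 15 were above 0, with a median of 1.21. The count was 5 without cholesterol library 2, 0 without any other 1 library, 5 by DESeq2 and 4 of 9 in a fit of the 2 diets alone. Cd74, the invariant chain, stood at 114, 71.2, 56.5, 65.7 and 70.3 CPM on sucrose and 599, 256 and 136 CPM with cholesterol (2.13 ± 0.55, adjusted p = 0.0454, edgeR). Its adjusted p was 0.466 without cholesterol library 0, and 0.0508 to 0.137 without cholesterol library 1 or any 1 sucrose library. The summed list was 119 to 249.8 CPM on sucrose and 255 to 1245 CPM with cholesterol, and its median was 0.50 without cholesterol library 0.

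None of 16 Kupffer cell markers passed by edgeR or DESeq2, with 8 at an unadjusted p under 0.05, and their median was 0.93 (0.35 without cholesterol library 0, 0.32 without sucrose libraries 0 to 2, and -0.06 with only the libraries that gained counts with length). Their sum was 293 to 534 CPM on sucrose and 384 to 816 CPM with cholesterol. Cd5l, a secreted Kupffer protein, stood at 32.0, 28.5, 25.4, 56.9 and 79.8 CPM on sucrose and 179.5, 96.4 and 49.6 CPM with cholesterol, which overlap (1.28 ± 0.39, adjusted p = 0.113, edgeR). Its adjusted p was 0.0377 without sucrose library 4 and 0.0357 without cholesterol library 2. Clec4f, the Kupffer lectin, overlapped too (30.6 to 67.8 against 49.9 to 94.7 CPM; adjusted p = 0.493, edgeR).

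Of 23 genes of lipid-associated and monocyte-derived macrophages, 20 were above 0, with a median of 0.80 (0.06 without cholesterol library 0) and a sum of 285 to 332 CPM on sucrose and 286 to 373 CPM with cholesterol. Lpl was the 1 gene higher (mean 32.7 CPM on sucrose, 127.5 CPM with cholesterol) and Fabp5 the 1 lower (107 and 15.5 CPM). The changes of Lpl and Fabp5 offset each other in the sum. Trem2 stood at 0 to 1.35 CPM on sucrose and 0.479 to 0.656 CPM with cholesterol (adjusted p = 0.945, edgeR), and Gpnmb at 0.300 to 0.652 against 0 to 2.08 CPM (adjusted p = 0.58, edgeR). None of 32 matrix and stellate cell genes passed by edgeR or DESeq2, with 4 at an unadjusted p under 0.05, and Col1a1 overlapped (4.35 to 16.1 against 11.2 to 18.9 CPM; adjusted p = 0.557, edgeR). None of 25 interferon-stimulated genes passed by edgeR (8 at an unadjusted p under 0.05), and DESeq2 called 2 higher. None of 19 endothelial markers passed by edgeR or DESeq2, and 0 were at that unadjusted p. The summed interferon-stimulated list was 2122 CPM in cholesterol library 0, 679 and 812 CPM in the others, and 791 to 961 CPM on sucrose.

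Zonal genes gave 2 falls and 1 rise. Ass1, an enzyme of the urea cycle, went from 416 to 693 CPM down to 307 to 344 CPM (-0.88 ± 0.20, adjusted p = 0.0173, edgeR). Gls2, the liver glutaminase, went from 297 to 372 CPM down to 172 to 221 CPM (-0.71 ± 0.15, adjusted p = 0.00784, edgeR). Both belong to the 20 periportal genes, of which none rose (median -0.22), and Cyp2c29 was the 1 called gene of 20 pericentral ones (median -0.29). Ass1 had adjusted p of 0.051 to 0.123 without sucrose library 1 or 2 or any 1 cholesterol library, and Gls2 of 0.0786 without cholesterol library 0. With only the libraries that gained counts with length, Ass1 was at -0.49 (adjusted p = 0.126, edgeR) and Gls2 at -0.483 (adjusted p = 0.0791, edgeR).

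Other listed genes were called singly. Apcs, the amyloid P component, stood at 52.3 to 72.7 CPM on sucrose and 24.5 to 35.0 CPM with cholesterol (-1.09 ± 0.23, adjusted p = 0.0114, edgeR, and 0.0593 and 0.0805 without cholesterol library 1 or 2), the 1 called gene of 23 acute phase genes. Fosl2, an AP-1 transcription factor, went from 6.26 to 10.9 CPM up to 13.3 to 15.1 CPM (0.84 ± 0.20, adjusted p = 0.0262, edgeR, and 0.0659 to 0.0901 without sucrose library 0, 1 or 2 or any 1 cholesterol library). Cela1, an elastase, went from 6.90 to 19.1 CPM down to 3.48 to 6.24 CPM (-1.43 ± 0.37, adjusted p = 0.0428, edgeR). Its adjusted p was 0.0508 to 0.243 without sucrose library 0, 1, 2 or 3 or cholesterol library 0 or 1, and 11 of the 14 pancreas markers were at 0 in each diet. Cela2a, which was not tested, had 28 reads in the sucrose libraries and 2 in the cholesterol libraries. Prss2 had 1 and 0 reads, and Cpa1 0 and 1. With only the libraries that gained counts with length, Cela1 was at -0.78 (adjusted p = 0.289, edgeR) and Fosl2 at 0.604 (adjusted p = 0.232, edgeR).

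Serpina12, the adipokine vaspin, stood at 203, 256, 214, 176 and 150 CPM on sucrose and 82.7, 57.7 and 112 CPM with cholesterol (-1.25 ± 0.33, adjusted p = 0.0498, edgeR), and its adjusted p was 0.0504 to 0.279 without any library but cholesterol library 2. BC023105, a processed pseudogene, had 111 CPM in cholesterol library 0, 8.16 and 4.43 CPM in the others and 2.28 to 4.13 CPM on sucrose (3.81 ± 0.88, adjusted p = 0.0203, edgeR). Without cholesterol library 0 its adjusted p was 0.7, and without sucrose library 1, 2, 3 or 4 it was 0.0526 to 0.0645.

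**Figure D4:**
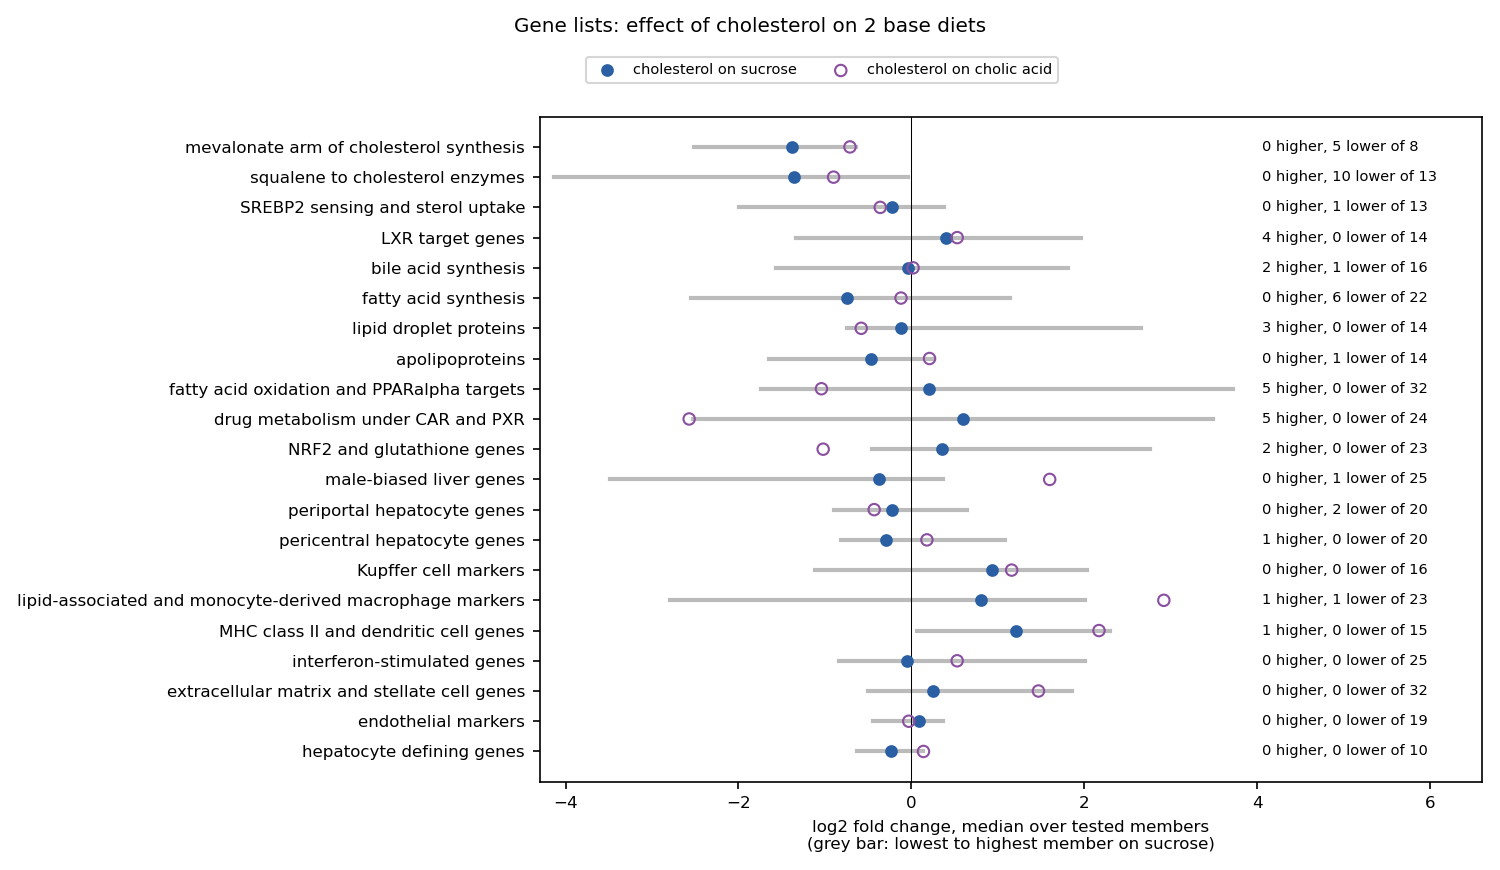
Filled circles give the median log2 fold change of each gene list for cholesterol on sucrose, grey bars its lowest and highest member, and open circles the median for cholesterol on cholic acid; the text at right counts members called on sucrose. Synthesis lists lie at -1.38 and -1.36, and the drug metabolism list at 0.60 on sucrose against -2.57 on cholic acid.

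Cholesterol was also added to cholic acid in the series, in libraries that share none with the sucrose diets, so the difference between the cholesterol contrasts could be tested. It passed for 756 genes (6%), 445 higher on sucrose (3.53%) and 311 lower (2.47%). These counts include genes with a gene opposite. With such genes left out before the fit, 246 were higher and 180 lower of 7817. The mitochondrial strand measure was 13.3 to 83.4 in the libraries of cholesterol with cholic acid and 37.0 to 63.4 on cholic acid alone. The part of wrong-strand reads in the difference was not tested. For drug metabolism genes 16 of 24 differed, all higher on sucrose, for fatty acid oxidation 24 of 32 and for NRF2 and glutathione genes 11 of 23, again all higher. Falls on cholic acid enter these differences. There cholesterol lowered 20, 28 and 15 members of the 3 lists in turn and raised 0, 1 and 2. The medians on cholic acid were -2.57, -1.04 and -1.02. Over all genes the lower count was 136 without cholesterol library 1, 191 without cholesterol library 0 and 204 without cholesterol library 2.

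Cyp4a14 stood at 684 to 1377 CPM on cholic acid and 1.41 to 4.77 CPM with cholesterol on cholic acid (-8.60, adjusted p = 3.02e-06, edgeR), so that the contrasts differed by 12.32 ± 1.06 (adjusted p = 4.55e-07, edgeR). Cyp4a10 differed by 8.00, Ehhadh by 3.66 and Cyp3a11 by 4.74 in the same direction. Cyp7a1 rose on both, from a mean of 0.487 to 22.8 CPM on cholic acid, and the difference was -3.62 (adjusted p = 0.00357, edgeR). Fabp5 (-4.72), Gria3 (-5.02) and Tff3 (-6.28) fell on sucrose and rose on cholic acid (by 1.93, 1.75 and 3.54 on the log2 scale; adjusted p = 0.0114, 0.0265 and 0.000967, edgeR).

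Among synthesis genes 2 of 8 and 2 of 13 differed, all lower on sucrose, among them Sqle (-2.58, adjusted p = 0.0139, edgeR) and Fdps (-1.59, adjusted p = 0.0281, edgeR). Sqle was already at a mean of 4.08 CPM on cholic acid alone, against 47.2 CPM on sucrose alone. Cyp51, Nsdhl, Hmgcs1 and Lpl did not pass (adjusted p = 0.0907, 0.085, 0.73 and 0.415, edgeR). Of the 113 unopposed genes called for cholesterol on sucrose, 57 (50.4%) were also called on cholic acid, 29 in the same direction. They were 3.19% of the 1784 unopposed genes called there, where 21.2% of all genes were called.

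Among genes with a gene on the other strand, or whose symbol was not found in the annotation, most of those called were higher, while the median over the class was 0.021. Of 4778 such genes 144 rose (3.01%) and 26 fell (0.544%), 3.56% in all, by edgeR. Where the opposite gene itself stood at 100 CPM or more, 58 of 250 rose and 1 fell, with a median log2 fold change of 0.14. Where it stood at 10 to 100 CPM, 40 of 1198 rose and 11 fell, and below 10 CPM 9 of 1939 rose and 8 fell. These are genes that passed the filter on low counts, which some did through the cholesterol libraries, where they are high.

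Gm20412 had 1 read in the sucrose libraries and 124 with cholesterol, a ratio of 219 (95% exact counting interval 38.6 to 8730), opposite Tgm2 at 148 CPM. Gm15932 had 2 and 109 reads (96.4, interval 26 to 806), opposite Dcaf11 at 254 CPM. Gm10382 stood at 0 to 0.300 CPM on sucrose and 5.91 to 7.88 CPM with cholesterol. BB114351 (3 and 101 reads, ratio 59.5, interval 19.8 to 294) and Gm17071 (0 to 0.569 against 8.76 to 10.7 CPM) had no match in the annotation. The part of wrong-strand reads in any single one of these was not tested.

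Among the 26 that fell, Prss8, a membrane protease, went from 6.90 to 11.6 CPM down to 0.985 to 3.63 CPM (-1.86 ± 0.38, adjusted p = 0.00743, edgeR, and 0.0507 without cholesterol library 2). Ctsl, a lysosomal protease, went from 463 to 608 CPM down to 331 to 386 CPM (-0.59 ± 0.13, adjusted p = 0.0136, edgeR, and 0.123 without cholesterol library 0).

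**Figure D5:**
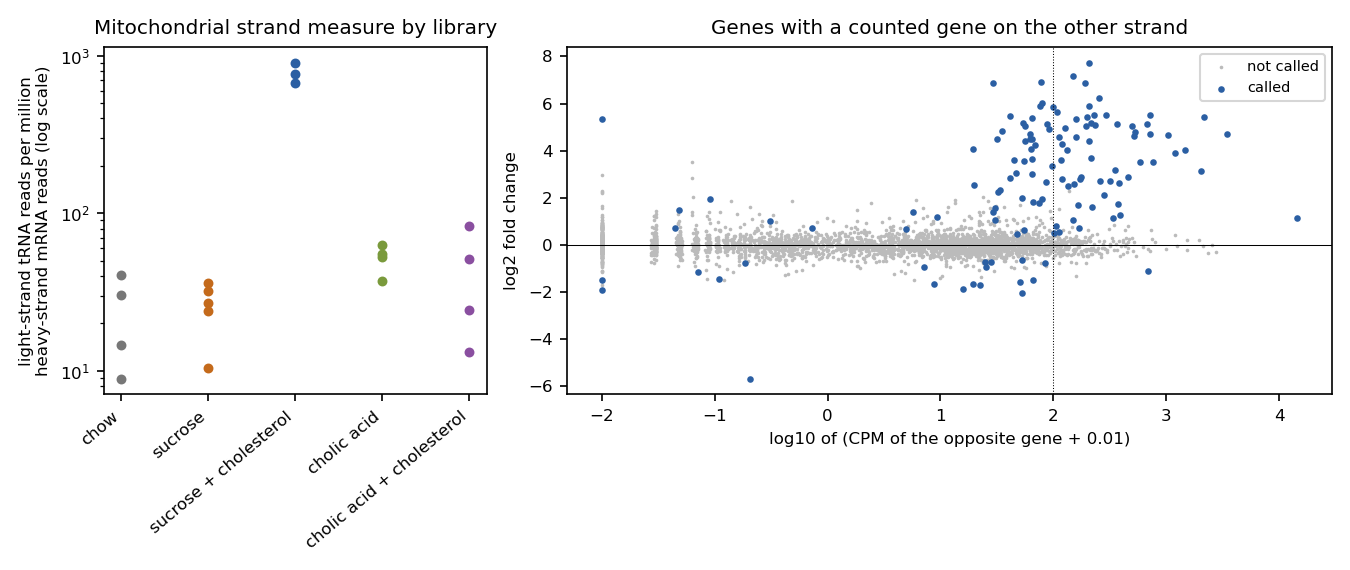
Left, light-strand tRNA reads of mitochondrial DNA in each library, in reads-per-million over heavy-strand messenger reads (log axis): 673 to 900 in the 3 cholesterol libraries and 10.4 to 36.4 in the 5 sucrose ones. Right, log2 fold change of each gene with a counted gene opposite against the log10 of the level of that opposite gene; right of the dotted line, at 100 CPM, 58 of 250 genes were called higher and 1 lower.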

How the data were processed

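Counts of 50-base single-end reads per gene symbol were deposited by the authors as 1 table of 34436 symbols, from stranded total-RNA libraries per the labels' protocols, and STAR 2.6.1c and the mm10 build are named in the submitters' processing notes. The counting tool and the strand counted are not given in the sources used here. The table has 23 columns of counts, of which 3 match no label and were not used. Symbols were placed on GENCODE M21 by name (29015) or through an older name (1835), and 3586 were not found (0.489% of reads). Promoters and older names came from RefSeq GRCm38.p6.

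The counts were tested with edgeR 4.0.16 (TMM scaling, filterByExpr, a robust quasi-likelihood fit with 1 mean per diet over 20 libraries, 15 residual degrees of freedom), with Benjamini-Hochberg adjustment over the 12595 genes kept and a threshold of 0.05. CPM values are TMM-scaled and 1 read was worth 0.136 to 0.164 CPM. The common biological coefficient of variation was 0.235. On simulated counts for this comparison (12595 genes), 53% of 100 genes changed 2-fold and 81% of 100 changed 4-fold were recovered, and 4 unchanged genes were called. The simulated counts were independent draws with no length trend and no added wrong-strand reads. These rates need not hold for the real libraries.

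Genes and lists were chosen with earlier results of these data known. Genes named were the 12 largest rises and 12 largest falls among called protein-coding genes without a gene opposite, with at least 5 CPM in either diet and no overlap between groups. Added to these were up to 4 called members of each list, the 5 largest rises and 3 largest falls of other genes, 4 of each sign from the difference between base diets, and 22 fixed genes. Alternatives covered scaling, filters, DESeq2 1.42.0, limits on length trend, and leaving out each library. The unused columns, and the diet they may belong to, were not analysed here. Some listed genes are not reported here.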

Additional observations from a re-analysis of the deposited data

Results flagged for a closer look

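The effect of cholesterol on sucrose differed from its effect on cholic acid, by edgeR's test of the difference, for 46 of the 84 genes named. Over all genes tested the share was 6%. Most of the 84 were named for their change on sucrose, and some for the difference itself, so a high count was built in. Gm20412, Gm15932 and Gm10382 have a gene opposite, and BB114351 and Gm17071 were not found in the annotation. The differences are given as log2 fold change on sucrose minus log2 fold change on cholic acid. Those above 0 were in Cyp4a14 (12.32), Cyp4a10 (8.00), BB114351 (7.45), Gm20412 (6.87), Gm15932 (6.67), Cyp3a44 (6.56), Gm10382 (6.52), Gm17071 (6.11), BC023105 (5.36), 9130409I23Rik (4.92), Cyp3a11 (4.74), Cidec (4.68), Cyp2c29 (4.65) and Gsta2 (4.28). Smaller ones above 0 were in Abcc3 (4.06), Ehhadh (3.66), Cd36 (3.66), Por (3.18), Ephx1 (3.16), Acaa1b (2.66), Slc39a4 (1.98), Plin4 (1.90), Abcg8 (1.26), Abcg5 (1.03), Acox2 (1.02) and Hsd17b11 (0.83). Those below 0 were in Tff3 (-6.28), Serpina12 (-5.63), Gpnmb (-5.52), Gria3 (-5.02), Fabp5 (-4.72), Cib3 (-3.92), Mycn (-3.86), Cyp7a1 (-3.62), Trem2 (-3.57) and Cyp17a1 (-3.30). Smaller ones below 0 were in G6pdx (-2.85), Sqle (-2.58), Cyp8b1 (-2.15), Apoa4 (-1.81), Gramd1c (-1.76), Fdps (-1.59), Mvk (-1.28), Pklr (-1.21), Apcs (-1.15) and Ctsl (-0.67).

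One of the 5 sucrose libraries stood far from the others, by Dixon's ratio of the gap to the whole range, for 9 of the 84 genes. The usual rate of 1 in 20 holds for normal, independent values. Levels near 0 and genes that move together need not follow it, so the count cannot be set against that rate. Sucrose library 2 was the outlying one for Pnpla3 (48.9 CPM, nearest 23.9), Rdh11 (134.1 CPM, nearest 92.8), Fdps (142.1 CPM, nearest 107.3) and Gramd1b (1.88 CPM, nearest 2.86). Sucrose library 0 was for Cd74 (114.4 CPM, nearest 71.2), Acox2 (170.4 CPM, nearest 197.7) and Gm17071 (0.569 CPM, nearest 0.163). Sucrose library 3 was for Cyp7a1 (37.0 CPM, nearest 16.8), and sucrose library 4 for Gm20412 (0.150 CPM, 1 read, nearest 0).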

How the results depend on the processing

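No called result changed sign. Of 1648 pairs of a named gene and an alternative 1387 kept the sign and the side of the threshold, 239 lost the threshold and 16 gained it, and 6 changed sign, in the uncalled genes Clec4f, Nr0b2 and Trem2, and 27 of the 70 called genes kept their call in all alternatives. Over the 8 fits without 1 library, genes without a gene opposite gave 26 to 66 higher and 24 to 54 lower, all genes 153 to 232 and 33 to 80, the remaining genes 127 to 166 and 9 to 27, and the difference between base diets 340 to 423 and 136 to 281. DESeq2 called 101 higher and 110 lower without a gene opposite, 164 lower of all genes, 54 lower of the remaining genes, and 476 lower for the difference. Leaving genes with one opposite out before the fit gave 36 higher and 35 lower, and 246 and 180 for the difference. Only libraries that gained counts with length gave 839 and 577 for the difference. In that fit Gbp1, Gsta2, Cd74, Cib3, Pdzk1ip1, Prss8, Abcg1 and Gramd1b did not pass for cholesterol on sucrose. Nor did Cyp39a1, Ostb, Cidec, Apoa4, Cd36, Ctsl, Serpina12 and BC023105 (adjusted p = 0.117 to 0.786 over these genes, edgeR). Abcg1 was at 0.553 there, Cib3 at -1.833 and BC023105 at 1.146, while Gsta2 was at 4.684 and Cidec at 2.665. A term for the sign of that trend gave 305 higher and 133 lower of all genes, 122 and 88 without a gene opposite, and 45 lower of the rest. Without sucrose libraries 0 to 2 and the other libraries of strong negative trend, chosen after seeing the data, the counts were 89 and 123 without a gene opposite, 180 lower of all, 57 lower of the rest, and 969 and 641 for the difference. A minimum change of 1.5-fold gave 19 and 17, 23 lower of all, 6 lower of the rest, and 194 and 93. No filter gave 346 higher of all and 293 of the rest, and a stricter filter 102 and 60. The cause of these shifts was not tested. Whether column numbers pair the libraries could not be decided from 3 numbers (same-number correlations 0.269, -0.231 and 0.156, best with its own number for 2 of 3). With the replicate block 46 of all genes, 34 without a gene opposite and 12 of the rest were lower. Depth limits genes near 3 reads, and 3 cholesterol libraries limit every call.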

Other observations

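The genes below are other called genes without a gene opposite, chosen after their values were seen. Aldh3a2, a fatty aldehyde dehydrogenase, averaged 246 ± 51.4 CPM (SD, n = 5) on sucrose and 618 ± 94.6 CPM (SD, n = 3) with cholesterol (1.33 ± 0.22 on the log2 scale, adjusted p = 0.000745, edgeR). Aox1, an aldehyde oxidase, averaged 49.2 ± 5.85 and 119 ± 7.37 CPM (1.28 ± 0.20, adjusted p = 0.000358, edgeR), with a chow mean of 147 CPM. Tsku, the secreted protein tsukushi, averaged 18.5 ± 4.21 and 71.6 ± 16.9 CPM (1.95 ± 0.37, adjusted p = 0.00336, edgeR).

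Aldoc, an aldolase, averaged 10.5 ± 1.13 CPM on sucrose and 3.68 ± 0.567 CPM with cholesterol (-1.50 ± 0.16, adjusted p = 6.58e-06, edgeR). Mmab, a cobalamin enzyme that shares its promoter region with Mvk, averaged 42.5 ± 3.89 and 22.7 ± 3.17 CPM (-0.91 ± 0.16, adjusted p = 0.0014, edgeR). Slc22a7, an organic anion transporter, averaged 64.4 ± 14.4 and 24.7 ± 4.23 CPM (-1.39 ± 0.28, adjusted p = 0.00583, edgeR), beside a chow mean of 24.9 CPM.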
